A study of Sus scrofa with 13 samples.

Results

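Chemokines, interleukins and their receptors were followed in heart muscle of infarcted pigs with and without injected stem cells. Members were all probe sets whose gene symbol in the platform annotation was CCL, CXCL, CCR, CXCR or IL followed by a digit, together with TNF, TNFRSF1A, TNFRSF1B, CSF2, LIF and MIF. This gave 63 genes with 72 probe sets, out of 6765 named genes and 23999 probe sets that were not controls. CSF1 was not analysed here. A further 2 probe sets carried a member symbol beside another symbol and were not used. Each gene was represented by its probe set with the highest mean log2 intensity over the 13 arrays, and 31 genes had a mean above 3.36, the 40th percentile of all probe sets, which was the limit for testing.

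Chemokines are small secreted proteins that direct the movement of white blood cells through receptors of the G protein-coupled family. They are grouped by the spacing of their first cysteines into CC and CXC chemokines. Interleukins and related cytokines act through receptors that signal by JAK kinases and STAT factors (the IL6, IL4 and IL10 families), or through MyD88 and NF-kB (the IL1 family, including IL18). After a coronary artery is closed, damaged muscle releases signals that raise IL1, IL6, TNF, CXCL8 and CCL2, which draw in neutrophils and then monocytes, and the response normally subsides as a scar forms.

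The tissue came from 13 Sinclair miniswine, small pigs that were all female and 3 months old at surgery. In every animal diagonal branches of the LAD, the left anterior descending artery of the heart, were ligated without later reopening. The stem cell group (n = 7) received 50000000 cells, called MPCs in the labels, as 10000000 at each of 5 sites in the border zone of the infarct, in a volume of 2 ml. The saline group (n = 6) had the same volume, 2 ml, injected without cells at 5 such sites. Drill biopsies of the heart were taken 4 months after the procedure, and each animal gave 1 Affymetrix porcine array. Where a biopsy lay relative to the scar is not given per animal, and the labels name no batch or date.

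The arrays had median intensities of 13.4 to 13.9, and any 2 of the 13 arrays correlated at 0.936 to 0.986 over the 14399 tested probe sets. All 13 cardiomyocyte markers with a probe set were above the limit, and their mean lay between 13.2 and 13.7 on the log2 scale in every animal. The array of stem cells replicate 6 had the lowest median correlation with the other arrays, 0.960, and the lowest level of many of the genes below. The differences of CCL2, CXCL2, CXCL9, CCL4 and MIF are therefore also given without it. It was the lowest animal for IL6, CXCL8 and IL1B as well, for which only the range over fits that left out single animals is given. In biopsies, fewer cells of a type and less RNA per cell cannot be told apart. A level is a signal of 1 probe set and depends on its probes, so levels are compared between animals and not between genes.

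Above the limit were 7 of 12 CC chemokines, 5 of 7 CXC chemokines, 2 of 7 chemokine receptors, 6 of 18 interleukins, 7 of 13 interleukin receptors and binding proteins, both TNF receptors, LIF and MIF. The other 32 genes had means of 1.76 to 3.30. Of these, 11 lay at or under 2.58, the highest mean of 17 tag controls (probe sets without a pig gene as target), and 21 lay between that level and the limit. The group at or under the limit held the cytokines of T helper cells (IL2, IL4, IL5, IL13, IL17A, IL21), both chains of IL12, and the lymphocyte receptors IL2RA, IL2RG, IL7R, CCR7, CCR9 and CXCR6. It also held the remaining members IL1A, IL7, IL10, IL17B, IL6R, IL12RB2, IL18R1, CCL8, CCL19, CCL25, CCL27, CCL28, CXCL13, CXCL14, CCR2, CCR3, TNF and CSF2. A mean this low does not show that the RNA was absent. When probe sets under the limit were tested too, 0 of the 32 passed at an adjusted p under 0.05, and CCR7, at -0.25, and CCL8, at 0.99, had an unadjusted p under 0.05. Of the probe sets above the limit, 10.5% had an unadjusted p under 0.05 in limma. The share in the fit without the limit is not given here. The tested members nearest the limit, within 0.1 of it, were CCL3L1, IL27RA and CCL5, and the nearest below it was IL1A, at 3.30.

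**Figure D1:**
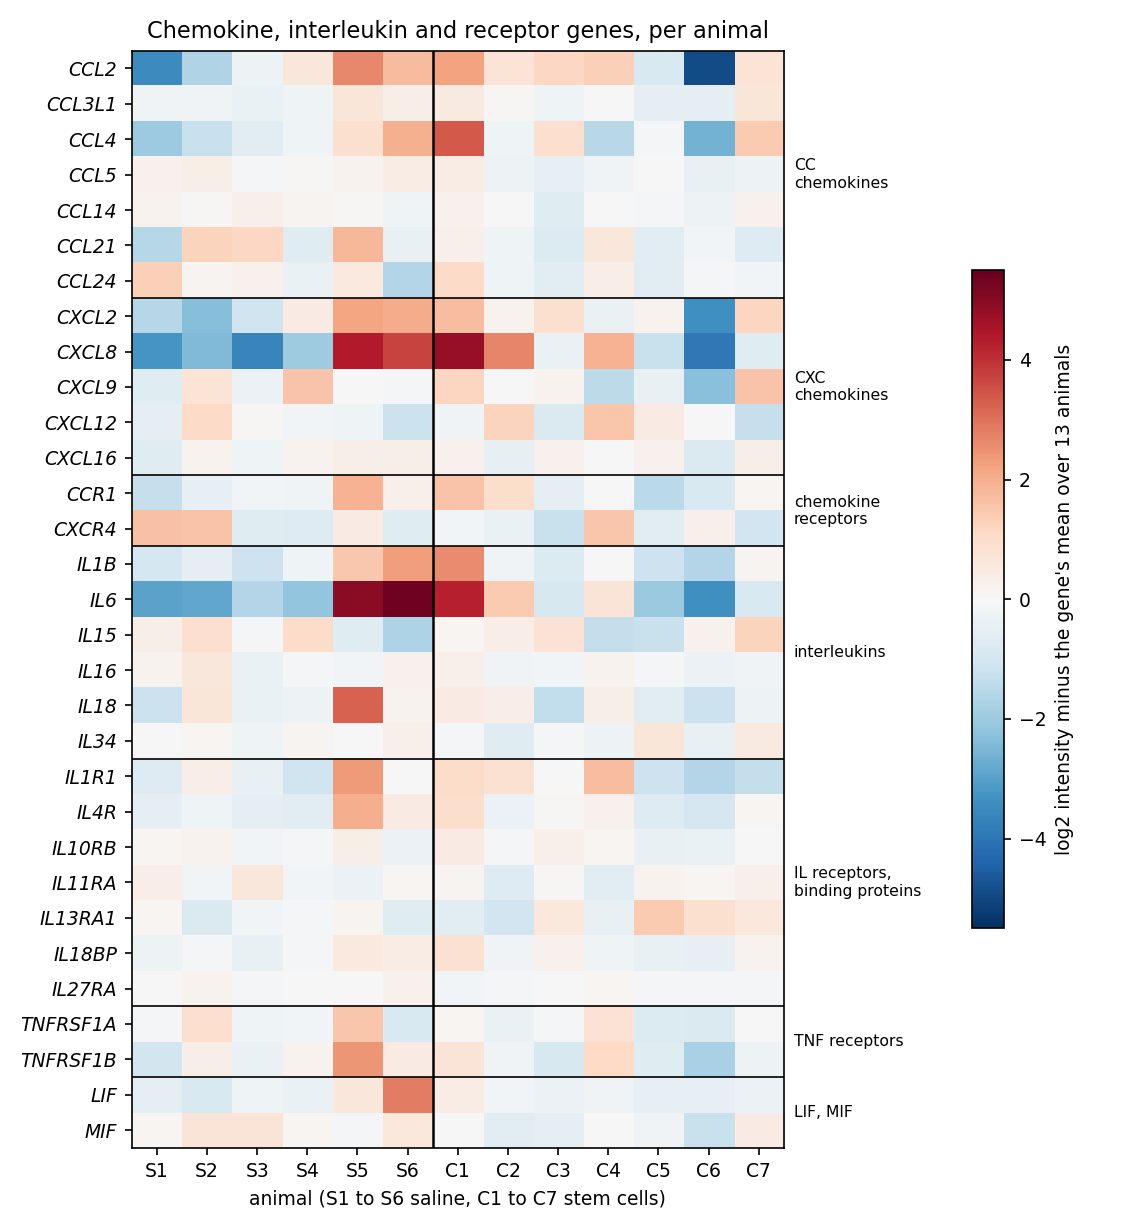
Log2 intensity of the 31 tested genes in each animal (columns, S1 to S6 saline and C1 to C7 stem cells), minus the gene's mean over the 13 animals and ordered by role. Red and blue run within both groups: IL6, CXCL8, CCL2, CXCL2 and IL1B are high in S5, S6 and C1 and lowest in C6.

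No chemokine, interleukin or receptor passed the test between the stem cell and the saline group once p was adjusted over all probe sets. At an adjusted p under 0.05, 0 of 31 genes were called, and 0% of the 14399 probe sets. The smallest adjusted p of a member was 0.42. Without adjustment, 2 members had p under 0.05 and lower values after stem cells, MIF and CCL5, and 0 had higher values. Over all probe sets tested, 5.15% were lower and 5.4% higher by that measure, so the members' share was near the background. For 0 of 31 members did the groups not overlap, against 0.278% of all probe sets.

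The log2 difference, stem cells minus saline, was negative for 24 of the 31 members and positive for 7, where 47.2% of all probe sets were negative. The members' median difference was -0.14, and that of all probe sets 0.02. The median turned to 0.06 when arrays were weighted by their quality, so its sign depended on the weights. The median standard error of a member, 0.441, was larger than the 0.18 of all probe sets. The difference was negative for 5 of 7 CC chemokines, 2 of 5 CXC chemokines, both chemokine receptors, 5 of 6 interleukins, 6 of 7 interleukin receptors and binding proteins, both TNF receptors, and LIF and MIF.

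**Figure D2:**
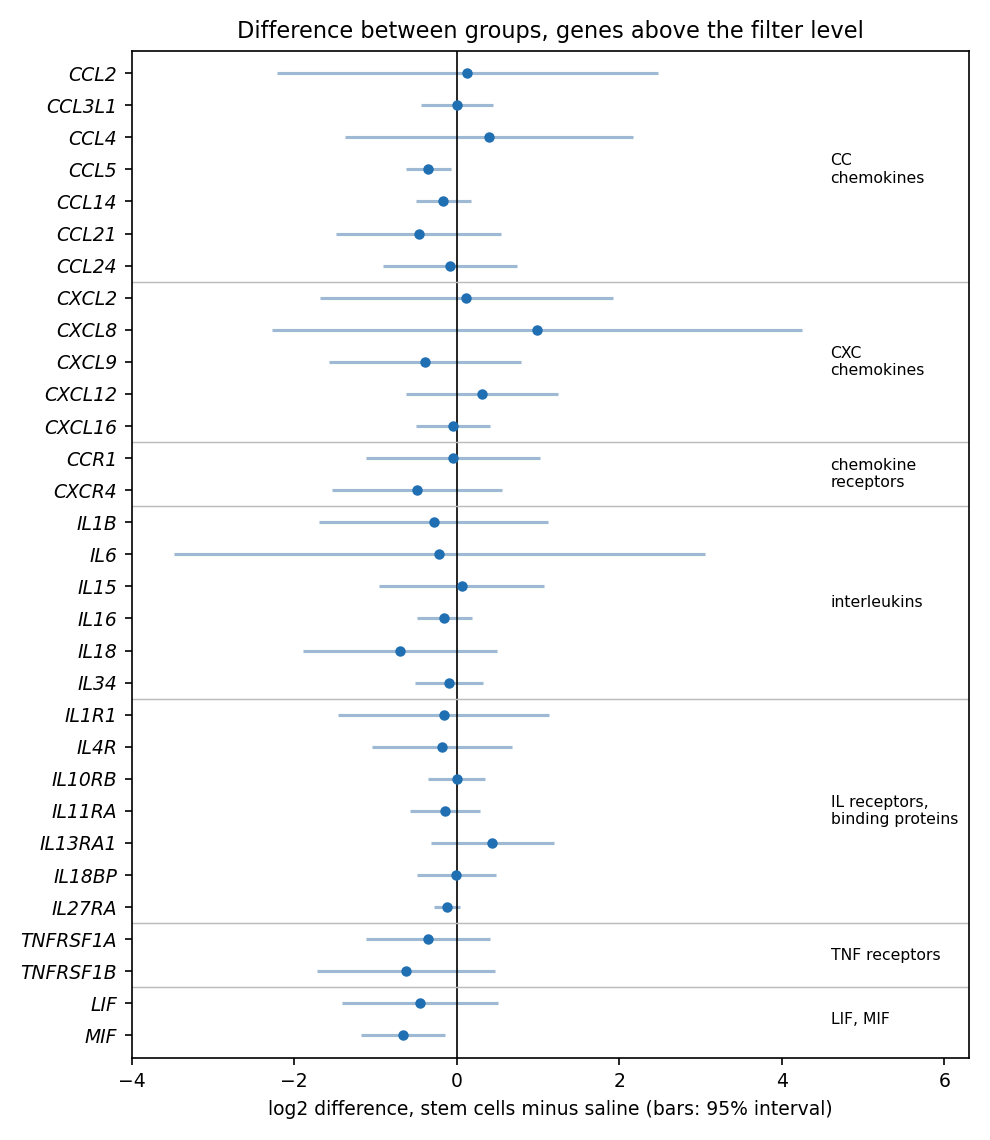
Log2 difference between the group means, stem cells minus saline, for the 31 tested genes; points are the limma estimates and bars their 95% intervals. All intervals but those of MIF and CCL5 reach across 0, and those of IL6 and CXCL8 are the widest.

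The main pattern in these genes was a difference between animals of the same group. Each animal gave 1 array, so differences between animals, biopsies and arrays cannot be told apart. IL6 and CXCL8 had the largest spread within groups of all 14399 probe sets tested, with within-group SDs of 3.24 and 3.23 on the log2 scale. CCL2 ranked 12, CXCL2 ranked 41, CCL4 ranked 45 and IL1B ranked 112 by the same measure. These 6 genes were among the 143 probe sets in the top 1%, and 17 of the 31 tested members were among the 719 in the top 5%. The median within-group SD was 0.9 for the members and 0.321 for all probe sets tested.

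**Figure D3:**
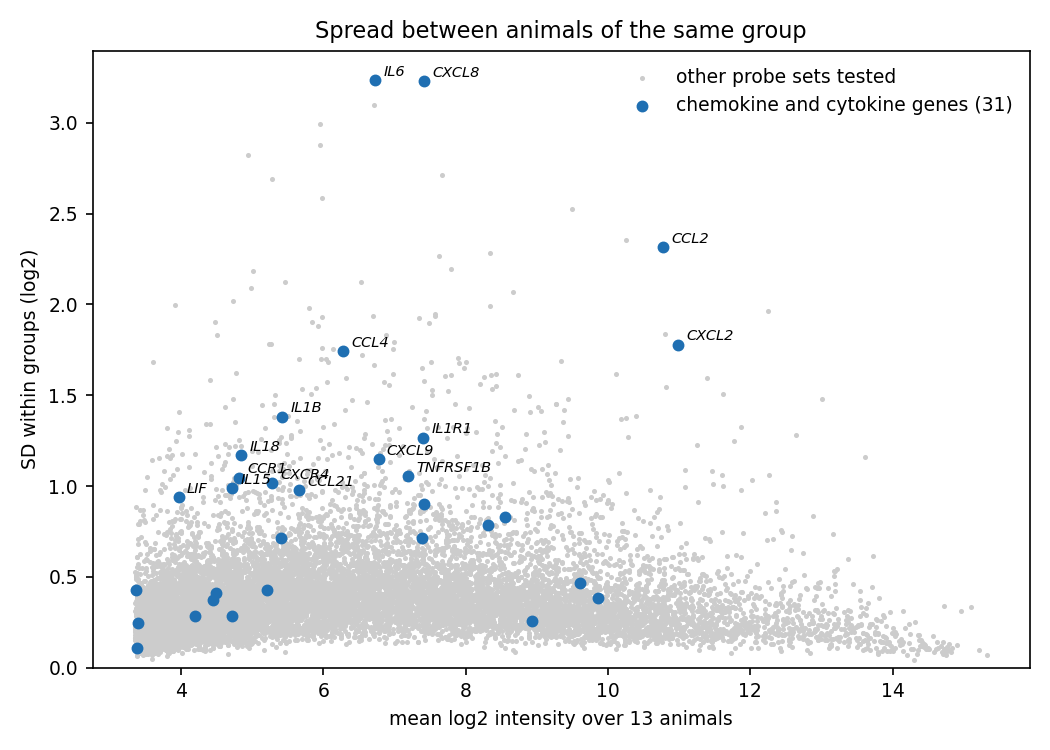
Within-group SD against mean log2 intensity for the 14399 probe sets tested (grey) and the 31 tested genes (blue). IL6 and CXCL8 stand at the top, at 3.24 and 3.23, with CCL2 at 2.32.

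IL6, the cytokine that drives the acute phase response of the liver, had log2 values of 3.77 to 12.08 in the saline group, with a median of 4.83. In the stem cell group the values ran from 3.34 to 10.99, with a median of 5.91. Saline replicates 5 and 6 were high, at 11.68 and 12.08, as was stem cells replicate 1 at 10.99, while the other 4 saline animals stayed at or below 5.09, and the groups overlapped over most of their range. In intensity units the animals ran from 10.1, a value just under the limit for testing, to 4330. The group means were 6.84 ± 3.94 (SD, n = 6) and 6.62 ± 2.51 (SD, n = 7). The difference was -0.22 ± 1.54 (SE), with a 95% interval from -3.48 to 3.05, so differences of several log2 units in either direction lie within the error. It ran from -0.94 without stem cells replicate 1 to 0.83 without saline replicate 6.

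CXCL8, the chemokine known as interleukin 8, which attracts neutrophils, ranged from 3.80 to 11.79 with a median of 5.20 in the saline group. After stem cells it ranged from 3.47 to 12.19 with a median of 7.07. Again saline replicates 5 and 6 and stem cells replicate 1 were highest and stem cells replicate 6 was lowest, and the groups overlapped. The difference was 0.99 ± 1.53 (SE; interval -2.27 to 4.25), with an adjusted p of 0.836 in limma. Leaving out single animals moved it between 0.27, without stem cells replicate 1, and 1.97, without saline replicate 5.

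CCL2, which recruits monocytes through CCR2, lay between 7.28 and 13.43 in the saline group, with a median of 10.92. In the stem cell group it lay between 5.86 and 12.96, with a median of 11.53. Stem cells replicate 6 stood far below the other animals of its group, the next of which was at 9.94, and the full range was 190-fold. The difference was 0.13 ± 1.10 (SE), and 0.96 without stem cells replicate 6. CCR2 itself had a mean of 2.48, below the limit.

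CXCL2, a further attractant of neutrophils, had saline values from 8.63 to 13.13, with a median of 10.66. Its values after stem cells were 7.61 to 12.67, with a median of 11.17. The groups overlapped, with a difference of 0.12 ± 0.85 (SE), and stem cells replicate 6 was again the lowest animal. Without that animal the difference was 0.69, and without saline replicate 2 it was -0.34.

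IL1B, a cytokine released by activated macrophages and monocytes, ran from 4.28 to 7.74 in the saline group, with a median of 5.04. After stem cells it ran from 3.83 to 8.01, with a median of 5.24. The high animals were stem cells replicate 1, saline replicate 6 and saline replicate 5, and the other 10 lay at or below 5.59. The difference was -0.29 ± 0.66 (SE), and 0.15 without saline replicate 6. A second probe set of IL1B followed the first at r = 0.955 over the 13 animals, and its difference was 0.10. CCL4, which draws monocytes and T cells, was chosen for naming after its values were seen. Its values were 4.29 to 8.21 in the saline group and 3.67 to 9.65 in the stem cell group, with medians of 5.85 and 6.17 and a difference of 0.39 ± 0.83 (SE), which was -0.14 when stem cells replicate 1 was left out and 0.86 when stem cells replicate 6 was.

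**Figure D4:**
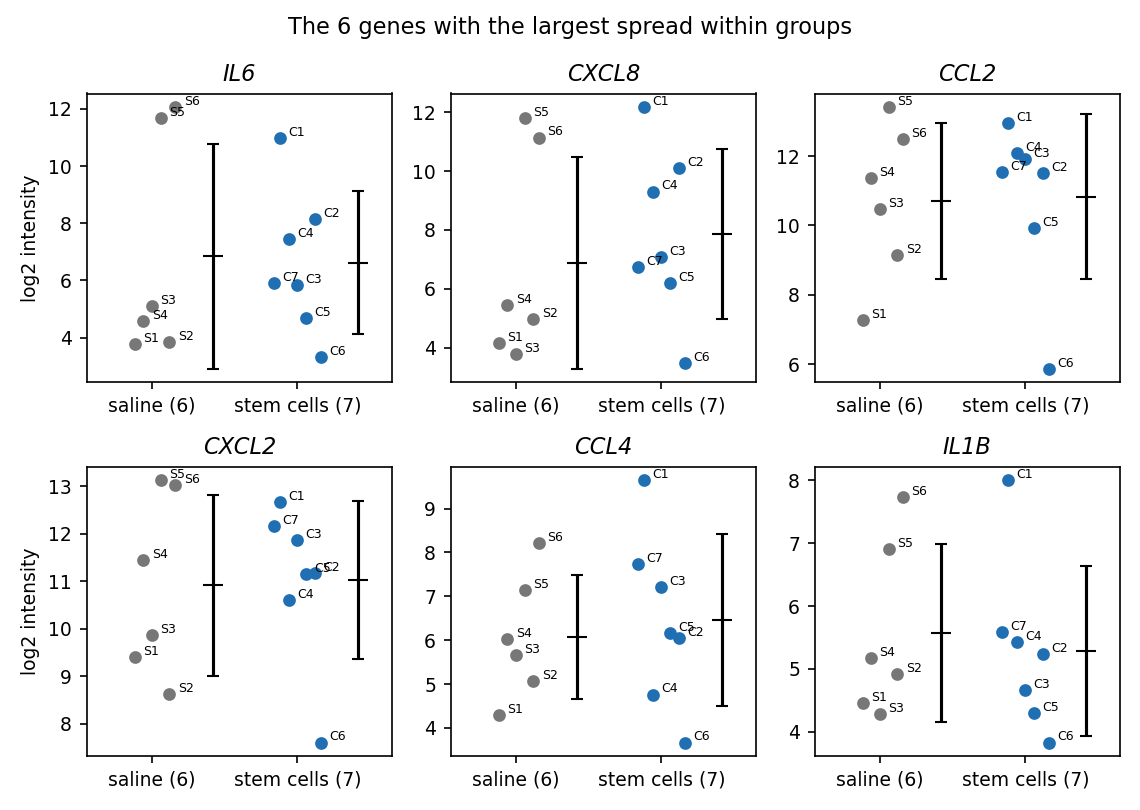
Log2 intensity of IL6, CXCL8, CCL2, CXCL2, CCL4 and IL1B in each animal, with the group mean and SD as a bar beside the points. S5, S6 and C1 are the 3 highest animals for all but CCL4, C6 is the lowest for all 6 genes, and the groups overlap in every panel.

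The 6 genes followed each other from animal to animal. Saline replicates 5 and 6 and stem cells replicate 1 were the 3 highest animals for IL6, CXCL8, CCL2, CXCL2 and IL1B. For CCL4 the 3 highest were stem cells replicate 1, saline replicate 6 and stem cells replicate 7, with saline replicate 5 at rank 5. Stem cells replicate 6 was the lowest of 13 for all 6. Over the 15 pairs of these genes, Pearson's r over the 13 animals was 0.71 to 0.95 and Spearman's rho 0.698 to 0.929. With each animal's value taken relative to its group mean r was 0.705 to 0.969, and without the 2 animals farthest from the median of the first gene it was 0.579 to 0.956. That rule never left out saline replicates 5 and 6 and stem cells replicate 1 together, so it does not give r without these high animals. All values of an animal come from 1 array and 1 biopsy, so these correlations are descriptions of shared ranks. Over all 465 pairs of tested members the median r was 0.234, with a range from -0.63 to 0.95.

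Other genes had profiles like these, and the likest to IL6 was PTGS2, the inducible cyclooxygenase that makes prostaglandins. Among 6884 named probe sets, PTGS2 had r = 0.991 with IL6 over the 13 animals (rho = 0.967). The next were CXCL8 at 0.95 and PLEK, a protein of platelets and white blood cells, at 0.941. CCL2 was most like CXCL2 at 0.899, the transcription factor MYC at 0.886 and the splicing factor SRSF7 at 0.857. CXCL8 was most like IL6, then PTGS2 at 0.948 and PMAIP1, a gene of cell death, at 0.94. These 3 genes were chosen for this search after their values were seen.

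In a list of IL6 and NF-kB response genes, 13 of 24 were tested and 0 were called, 0 had an unadjusted p under 0.05 in either direction, and 7 had a negative difference, with a median of -0.05. E-selectin (SELE), which activated endothelium displays to slow passing white blood cells, was 2.13 to 9.50 in the saline group, with a median of 3.07, and 2.43 to 8.44 after stem cells, with a median of 4.32. Its r with IL6 was 0.824, and that of P-selectin (SELP) was 0.83, of TIMP1 0.793 and of PTX3 0.756. Other genes of the list ran the opposite way or were nearly unrelated: SAA2, an acute phase gene, had r = -0.77 with IL6, FGL2 -0.557 and the transcription factor CEBPD 0.238. The 3 smallest p of this list belonged to VCAM1, with a difference of 0.54 ± 0.31 (SE), IER3, with -1.32 ± 0.80, and TIMP1, with -1.01 ± 0.68, at adjusted p of 0.55 to 0.603 in limma.

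Markers of other cells and of RNA quality were set beside this pattern. S100A9, an abundant neutrophil and monocyte protein, was the only one of 7 neutrophil markers with a probe set above the limit. It ran from 5.37 to 10.49 in the saline group, with a median of 8.22, and from 4.31 to 9.92 after stem cells, with a median of 7.00. Its r was 0.759 with IL6, 0.819 with IL1B and 0.708 with CCL2. The other neutrophil markers with a probe set, S100A8, S100A12, ELANE, LTF, MMP9 and PGLYRP1, had means at or below 3.27. Among them S100A12, LTF and S100A8 had r of 0.851, 0.813 and 0.785 with IL6, LTF reached 4.88 in a saline and 4.94 in a stem cell animal, and MMP9 had r = -0.05. The mean of 11 macrophage and monocyte markers had r = -0.02 with IL6. Single markers, named after their values were seen, ran in both directions. TYROBP had r = 0.553 and FCER1G 0.428, while CD163 had r = -0.518 and CTSS -0.396. ITGAM, with a mean of 2.75 and so below the limit, had r = 0.889 with IL6. The 3' to 5' ratio of the EF1A control probe sets, a measure of RNA integrity on the log2 scale, was 0.947 ± 0.098 (SD, n = 6) in the saline and 0.815 ± 0.107 (SD, n = 7) in the stem cell group (two-sided exact permutation test over 1716 splits, p = 0.046). Its r with IL6 was 0.636 (0.322 without the 2 animals farthest from the median of IL6), and with CXCL8 0.489. The ratio of GAPDH was 0.522 ± 0.332 (SD) in the saline and 0.535 ± 0.358 in the stem cell group (two-sided exact permutation test, p = 0.959). That of actin was 3.13 ± 0.744 (SD) and 2.89 ± 1.11 (two-sided exact permutation test, p = 0.664). The r of the GAPDH and actin ratios with IL6 was -0.12 and -0.09. The mean of 13 cardiomyocyte markers had r = 0.615 with IL6 (0.332 without the 2 animals farthest from the median of IL6) and 0.572 with CXCL8. The part of these measures in the pattern was not tested. With the EF1A ratio as a covariate, an alternative chosen after seeing the data, the group differences of IL6 and CXCL8 were 2.90 and 3.97. Neither was called, since the smallest adjusted p of a member there was 0.557 in limma.

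Among the other CC chemokines, CCL5, which attracts T cells and monocytes and is known as RANTES, had the smallest p. Its saline values were 3.30 to 3.81, with a median of 3.61, and its values after stem cells 2.96 to 3.80, with a median of 3.13. In 6 of 7 stem cell animals it was below the mean of the saline group, stem cells replicate 1 lay close to the highest saline animal, and the groups overlapped. The difference was -0.35 ± 0.13 (SE; interval -0.62 to -0.07), with p = 0.0167 and an adjusted p of 0.423 in limma and p = 0.0344 in the two-sided exact permutation test. The signal was near the limit for testing, and CCL5 was not tested with a filter at the 60th percentile. With the EF1A ratio or the macrophage marker mean as a covariate its unadjusted p was no longer under 0.05. The T cell markers CD3D, CD3E and CD3G were at or below 2.93, and 4 of 12 T and NK cell markers with a probe set were tested. The named probe sets most like CCL5 over the 13 animals belonged to POLR1D (r = 0.85), DNAJC5 (0.832) and CORO1A (0.829).

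CCL14, a chemokine of healthy tissue and plasma, was even between animals, at 8.70 to 9.21 in the saline group (median 9.04) and 8.28 to 9.16 after stem cells (median 8.93). The difference was -0.17 ± 0.16 (SE) with an adjusted p of 0.709. CCL21, which lymphatic vessels use to draw in dendritic cells and T cells through CCR7, was spread more widely in the saline group, at 4.10 to 7.48 (median 6.04), than after stem cells, at 4.92 to 6.31 (median 5.41). The saline range enclosed all stem cell values, and the difference was -0.47 ± 0.48 (SE), with -0.16 left without saline replicate 5. CCL24, an eosinophil attractant, and CCL3L1, a close copy of CCL3 whose signal the probes may not separate from it, had differences of -0.08 ± 0.39 and -0.001 ± 0.21 (SE). CCL8 was below the limit by its mean, 2.87, yet had the highest single values of the genes at or under the limit, 5.25 in stem cells replicate 7 and 4.95 in stem cells replicate 1. Its saline values were 1.94 to 2.95 (median 2.17) and its stem cell values 2.33 to 5.25 (median 2.69), so the groups overlapped.

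Of the other CXC chemokines, CXCL12 binds CXCR4 and retains stem and progenitor cells in tissue. It was 6.22 to 8.47 in the saline group (median 7.22) and 6.16 to 8.95 after stem cells (median 7.43). The highest animals were stem cells replicates 4 and 2 and saline replicate 2, the lowest were stem cells replicate 7 and saline replicate 6, and the groups overlapped almost fully. The difference was 0.31 ± 0.44 (SE; interval -0.63 to 1.25), with 0.076 left without stem cells replicate 4 and 0.55 without saline replicate 2. CXCL12 followed the mean of 10 fibroblast and scar matrix markers at r = 0.883 over the 13 animals (rho = 0.775, and r = 0.806 without the 2 animals farthest from the median). It followed JCHAIN, a plasma cell gene, at r = 0.754. Its r with the 3' to 5' ratios of GAPDH and actin was 0.732 and 0.646, and with that of EF1A -0.201. The part of these measures was not tested. A second, dimmer CXCL12 probe set had r = 0.781 with the first and a difference of -0.09. CXCL9, an interferon-induced attractant of T cells, had a difference of -0.39 ± 0.56 (SE), which was -0.04 when stem cells replicate 6 was left out and -0.69 when stem cells replicate 7 was, and CXCL16 one of -0.05 ± 0.21.

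CXCR4, the receptor of CXCL12, ranged from 4.59 to 6.88 in the saline group (median 5.17) and from 4.08 to 6.79 after stem cells (median 4.91). Saline replicates 1 and 2 and stem cells replicate 4 were high and the rest lay at or below 5.72, so high animals occurred in both groups. The difference was -0.49 ± 0.49 (SE), with an adjusted p of 0.731. Its r with CXCL12 was 0.522 and with the macrophage marker mean 0.667. Other marker means had r of similar size with CXCR4. These were 0.646 for T and NK cells, 0.601 for mast cells, 0.55 for B and plasma cells and -0.786 for erythroid cells. The part of these measures was not tested. The macrophage marker mean was 7.69 ± 0.34 (SD, n = 6; range 7.22 to 8.26) in the saline and 7.40 ± 0.33 (SD, n = 7; range 7.02 to 7.97) in the stem cell group. With the macrophage marker mean as a covariate, chosen after seeing the data, the CXCR4 difference was 0.09. CCR1, a receptor of CCL3 and CCL5 on monocytes and neutrophils, had means of 4.84 ± 1.05 (SD, n = 6) and 4.80 ± 1.04 (SD, n = 7).

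IL18, an inflammasome product related to IL1B, had the most negative difference of the tested members, -0.70 ± 0.56 (SE). Its saline values were 3.68 to 8.07 (median 4.79) and its values after stem cells 3.47 to 5.31 (median 4.55). A single animal, saline replicate 5 at 8.07, stood above all others, the next being 5.53, and without it the difference was -0.13. IL18BP, the secreted protein that binds and blocks IL18, had a difference of -0.004 ± 0.23 (SE). IL16, an attractant of CD4+ cells, was 3.84 to 4.82 (median 4.24) in the saline group and 3.86 to 4.47 (median 4.04) after stem cells, with a difference of -0.15 ± 0.16 (SE). IL15 and IL34, which sustain NK cells and macrophages, had differences of 0.06 ± 0.48 and -0.10 ± 0.20.

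IL10, the main inhibitor of macrophage cytokine production, had a mean of 3.15, below the limit. It was 2.84 to 3.77 (median 2.99) in the saline group and 2.67 to 3.92 (median 2.99) after stem cells, and its r with IL6 was 0.469. IL1A, which acts through the same receptor as IL1B and whose gene lies next to that of IL1B in the pig gene order, had r = 0.916 with IL1B, although its mean lay below the limit. Other members lie near each other too: CXCL8 and CXCL2, with 4 coding genes between them, had r = 0.793, CCL4 and CCL3L1, next to each other, 0.692, and CCL14 and CCL5, with 1 gene between them, 0.401. In all, 21 neighbouring pairs of members lay within 20 coding genes of each other, and their r ran as low as -0.30, for CCR9 and CXCR6, both below the limit.

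Of the receptors of interleukins, IL11RA, which signals for the scar-promoting cytokine IL11, was 9.54 to 10.49 (median 9.85) in the saline group and 9.15 to 10.15 (median 9.98) after stem cells, with a difference of -0.14 ± 0.20 (SE). IL4R, the receptor chain of IL4 and IL13, was 7.98 to 10.55 (median 8.18) in the saline group and 7.61 to 9.52 (median 8.63) after stem cells. The highest IL4R value was again that of saline replicate 5 and the lowest that of stem cells replicate 6, and the difference was -0.18 ± 0.41 (SE) with all animals and 0.20 without saline replicate 5. IL13RA1, the partner chain of IL4R, was 4.61 to 5.55 (median 5.28) and 4.36 to 6.83 (median 5.97), with 4 stem cell animals above all saline animals and the lowest animal also in the stem cell group. Its difference of 0.44 ± 0.35 (SE; interval -0.32 to 1.19) had an adjusted p of 0.657.

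IL1R1, the signalling receptor of IL1A and IL1B, ran from 6.31 to 9.77 (median 7.19) in the saline group and from 5.80 to 9.09 (median 7.38) after stem cells, with a difference of -0.16 ± 0.61 (SE). It is named after its values were seen, since its r with IL6 was 0.688. IL27RA, the receptor of IL27, had a narrow range near the limit, 3.32 to 3.63 (median 3.40) and 3.24 to 3.51 (median 3.31). In 6 of 7 stem cell animals it was under the saline mean, and the difference of -0.12 ± 0.08 (SE) had an adjusted p of 0.585. The probe sets most like it were those of ACTR3B (r = 0.864), TM7SF2 (0.844) and USP10 (0.83). IL10RB, a chain shared by the receptors of IL10 and related cytokines, had a difference of -0.002 ± 0.17.

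TNF itself had a mean of 3.26, below the limit, with saline values of 3.03 to 3.35 (median 3.25) and values of 3.03 to 3.74 (median 3.21) after stem cells. Both of its receptors were measured. TNFRSF1A, the widely expressed receptor that can signal cell death, was 6.54 to 8.92 (median 7.27) in the saline group and 6.58 to 8.19 (median 7.27) after stem cells. TNFRSF1B, found mainly on white blood cells and endothelium, was 6.20 to 9.63 (median 7.43) and 5.42 to 8.27 (median 6.91). The differences were -0.36 ± 0.36 and -0.62 ± 0.51 (SE), with adjusted p of 0.729 and 0.662. Saline replicate 5 had the highest value of both receptors, at 8.92 and 9.63, and without it the differences were -0.09 and -0.20. TNFRSF1B had r = 0.696 with the mean of 8 endothelial markers, and 0.279 without the 2 animals farthest from the median.

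LIF, a relative of IL6 that protects heart muscle cells, was 3.12 to 6.79 (median 3.67) in the saline group and 3.50 to 4.37 (median 3.64) after stem cells. Saline replicate 6 stood alone at 6.79, the other animals lay at or below 4.59, and the medians of the groups were close. The difference of -0.46 ± 0.45 (SE) became 0.06 without that animal. LIF had r = 0.803 with IL6 (rho = 0.933).

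MIF, macrophage migration inhibitory factor, is a cytokine stored in many cells, heart muscle included, and released in ischemia. It had the smallest p of the tested members. Its saline values were 9.51 to 10.32 (median 9.95) and its values after stem cells 8.39 to 10.04 (median 9.39). In 6 of 7 stem cell animals MIF was under the saline mean of 9.96 ± 0.36 (SD, n = 6), with stem cells replicate 7 above it and stem cells replicate 6 lowest, and the groups overlapped between 9.51 and 10.04. The difference was -0.66 ± 0.24 (SE; interval -1.17 to -0.15), a saline level 1.58 times that after stem cells. In limma p was 0.0147 and the adjusted p 0.42, and the two-sided exact permutation test gave p = 0.0239, so MIF did not pass over all probe sets. The difference lay between -0.79 and -0.51 when single animals were left out, and the unadjusted p stayed under 0.05 in 13 of 13 such fits.

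Over the 13 animals MIF had r = 0.131 with IL6, 0.0079 with CXCL8 and 0.298 with CCL2, and higher values with CCL5 (0.594), CCL14 (0.533) and CXCL9 (0.512). It followed DDT, its close homologue, at r = 0.89 (rho = 0.916, and 0.811 without the 2 animals farthest from the median). DDT was 7.37 to 8.38 (median 7.90) in the saline group and 5.78 to 7.68 (median 6.88) after stem cells, with a difference of -1.06 ± 0.30 (SE) and an adjusted p of 0.393 in limma. The named probe sets most like MIF were those of HSBP1 (r = 0.931), TSR3 (0.923) and WASHC1 (0.919). Since they were picked for that likeness over the same animals, their negative differences add nothing to that of MIF. The adjusted p of HSBP1 was 0.393 in limma. MIF had r = 0.702 with the mean of 7 smooth muscle and pericyte markers, 0.361 without the 2 animals farthest from the median, and 0.511 with the macrophage marker mean, 0.084 with 2 animals left out by the same rule. With the macrophage marker mean as a covariate, chosen after seeing the data, the MIF difference was -0.52 and its unadjusted p was no longer under 0.05.

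**Figure D5:**
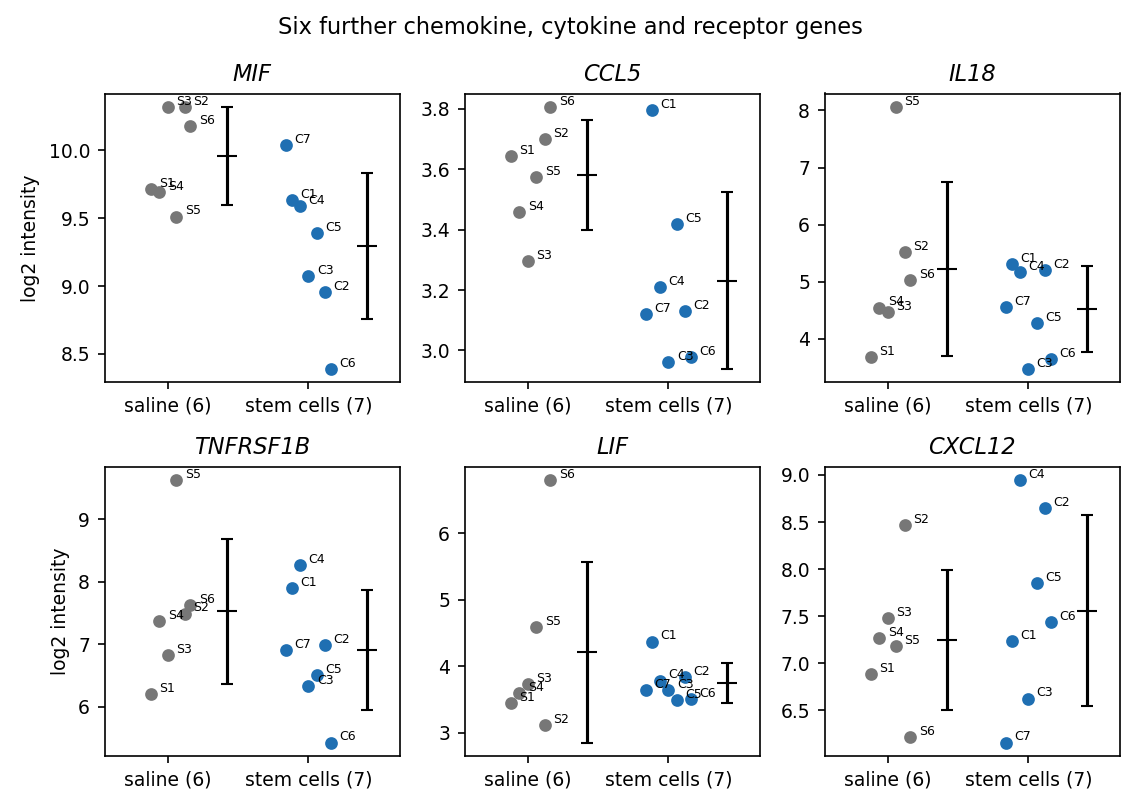
Log2 intensity of MIF, CCL5, IL18, TNFRSF1B, LIF and CXCL12 in each animal, with the group mean and SD as a bar beside the points; each panel has its own scale. For MIF and CCL5, the value of 6 of 7 stem cell animals is under the mean of the saline group, while the saline means of IL18 and LIF are raised by 1 animal each.

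The genes that carry these signals onward were read from lists of pathway partners. For comparison with the counts below, 47.2% of all probe sets tested had a negative difference. At an unadjusted p under 0.05 in limma, 5.15% of them were lower and 5.4% higher after stem cells. Of 30 MIF and TNF partners 13 were tested, 7 had a negative difference, 1 (DDT) had an unadjusted p under 0.05 and 0 were called, with a median difference of -0.18. The next smallest p of that list were those of TNFAIP8, with a difference of 0.54 ± 0.29 (SE), and TNFSF13, with -0.20 ± 0.11. CD74, the cell surface receptor of MIF, had a difference of -0.30 ± 0.45.

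Of 26 JAK, STAT and SOCS genes 14 were tested, 9 were negative, 0 were called and the median was -0.02. Some SOCS proteins, SOCS1 among them, are induced by cytokines and switch off their receptors. The smallest p were those of SOCS6 at 0.40 ± 0.16 (SE) and SOCS4 at 0.26 ± 0.11, both with an unadjusted p under 0.05 and higher values after stem cells, and of SOCS1 at -0.40 ± 0.24. STAT3, the factor that IL6 activates, had a difference of -0.33 ± 0.25 and r = 0.314 with IL6.

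Of 31 genes of IL1 and toll-like receptor signalling 11 were tested, 6 were negative, 0 were called and the median was -0.01. SIGIRR, an inhibitory receptor of that family, had a difference of -0.36 ± 0.13 (SE) with an unadjusted p of 0.0166, LY96, the partner of TLR4, had -0.999 ± 0.51, and IRAK1 had -0.30 ± 0.18. Of 24 other chemokine system genes 3 were tested and 0 called. AMCF-II, which attracts neutrophils in pigs, had a difference of 0.40 ± 0.20. RARRES2, the gene of chemerin, had -0.46 ± 0.43, and DPP4, a protease of chemokines, had 0.22 ± 0.48. From animal to animal AMCF-II ran opposite to IL6, CXCL8 and CCL2, with r of -0.723, -0.576 and -0.459. The r with IL6 was 0.157 for RARRES2 and -0.164 for DPP4. The cause of the opposite course of AMCF-II was not tested. Of 26 gp130 and colony stimulating factor partners, 2 were tested, KIT at -0.07 ± 0.21 and GHR at -0.01 ± 0.15. All adjusted p of the genes named from these lists were at or above 0.393.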

How the data were processed

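Total RNA of 13 heart biopsies was hybridised to Affymetrix porcine arrays, 1 per animal. The authors deposited linear intensities, and the submitters' processing notes name GCRMA; its version and settings, and whether values were scaled after it, were not given in the sources used here. GCRMA makes the distributions of arrays alike, so a shift shared by most genes cannot be seen.

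Intensities were put on the log2 scale. Of 24123 probe sets, 124 controls were left out, and 14399 with a mean above the 40th percentile, 3.36, were tested in R 4.3.3 with limma 3.58.1 (lmFit, eBayes with trend; Benjamini-Hochberg over all 14399). Of 23999 probe sets, 10069 had 1 gene symbol, 198 several and 13732 none. Symbols of 9961 matched a pig gene table of assembly Sscrofa11.1 by gene ID, and 0 changed; it served for names and gene order, with no coordinates. Single values were also tested by exact permutation over 1716 splits. The script was tested on simulated data. The number of arrays limits the precision.

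Replicate numbers were not said to pair animals. Deviations of same-numbered animals from their group means correlated at -0.27 to 0.24, with 1 of 6 over 0.1, so numbers were not used as pairs.

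The members and the gene lists were chosen with earlier results of these data known. Named with values were the 12 tested members with the smallest p, the 6 with the highest mean, the 3 with the largest SD, members without overlap of the groups (0), and CCL2, CXCL8, CXCL12, CXCR4, IL1B, IL6, IL10, IL18, TNF, TNFRSF1A, TNFRSF1B, LIF and MIF; others were named after their values were seen. Up to 3 genes per pathway list were named by the smallest p; CD74, STAT3, the selectins, PTX3, PTGS2, SAA2, FGL2 and CEBPD were named after their values were seen. Alternatives were no filter, a 60th percentile filter, a floor at the 20th percentile, further quantile normalization, median centring, other variance models, array weights, the mean of a gene's probe sets, an adjusted p of 0.10, a replicate block and leaving out each animal. The EF1A ratio and the macrophage marker mean as covariates were chosen after seeing the data.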

Additional observations from a re-analysis of the deposited data

Results flagged for a closer look

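Within each group the highest and the lowest animal of every member was set against Dixon's critical value for its distance from the next animal. Of 126 groups examined, 8 held an animal this far apart, and chance gives about 1 in 20 groups. Stem cells replicate 6 lay below its group for CXCL2, at 7.61 with the next animal at 10.61, for CCL2, at 5.86 with the next at 9.94, and for IL17B, at 2.82 with the next at 3.08. The other probe sets of IL17B had r of 0.09 and -0.19 with the one used. In them stem cells replicate 6 was not low, at 2.88 and 2.87 beside medians of 2.84 and 2.72 in its group. Stem cells replicate 1 lay above its group for IL1B, at 8.01 with the next at 5.59, for LIF, at 4.37 with the next at 3.84, and for IL1A, at 4.12 with the next at 3.39. Saline replicate 5 lay above its group for IL2RG, the common chain of lymphocyte cytokine receptors, at 4.01 with the next at 3.25. Saline replicate 2 lay above its group for CXCR6, at 3.03 with the next at 2.61. IL17B, IL1A, IL2RG and CXCR6 had means below the limit for testing.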

How the results depend on the processing

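In each of the 26 alternatives run, 0 of the members tested there passed an adjusted p of 0.05 (or 0.10 in the alternative that used it), and the lowest adjusted p of a member was 0.257. The 60th percentile filter tested 26 members, no filter 63 and the others 30 or 31. Of the 31 members, 11 kept their direction in every alternative that tested them and 20 did not. The 2 members with an unadjusted p under 0.05 became 4 with no filter, where CCR7 (-0.25) and CCL8 (0.99) joined them, and 1 with the 60th percentile filter. They became 4 with the EF1A ratio as a covariate (MIF, CXCL8, IL6 and CCR1) and 1 with the macrophage marker mean as a covariate (CXCL12, at 0.89). In the main fit 10.5% of all probe sets tested had an unadjusted p under 0.05 in limma. The shares in the alternatives are not given here, so these counts are not read as results about the members. MIF and CCL5 kept an unadjusted p under 0.05 in 13 of 13 fits that left out an animal, and neither kept it with the macrophage marker mean as a covariate. The median difference of the members lay between -0.24 and -0.04 when single animals were left out, and was 0.064 with array weights. Over all probe sets 0 or 1 were called when single animals were left out, with 1 only without saline replicate 5.

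Log2 differences, stem cells minus saline, that changed sign are as follows, and the cause was not tested. With the EF1A ratio as a covariate they were IL4R 0.28, IL1R1 0.47, IL6 2.90, IL1B 0.85, IL13RA1 -0.078, IL18BP 0.24, CCR1 0.96, IL15 -0.19, IL10RB 0.023, CXCL16 0.0026, LIF 0.31 and CCL3L1 0.33. With array weights they were IL4R 0.13, IL1R1 0.038, CXCL9 0.064, IL6 0.69, IL1B 0.21, IL18BP 0.20, CCR1 0.18, IL10RB 0.069, CXCL16 0.19, IL34 0.033 and CCL3L1 0.14. With the macrophage marker mean as a covariate they were CXCL2 -0.11, CCL24 0.27, IL1R1 0.42, TNFRSF1A 0.091, CXCR4 0.086, CCR1 0.16, IL10RB 0.12, CXCL16 0.0078 and CCL3L1 0.049. With a replicate block, which the numbers do not warrant, they were CXCL2 -0.072, IL1R1 0.046 and IL15 -0.14; the block called 0 members and 0 probe sets, left 2 members with an unadjusted p under 0.05 and gave a median of -0.13. Leaving out single animals gave ranges across 0 of CXCL2 -0.34 to 0.69, CCL2 -0.55 to 0.96, IL4R -0.36 to 0.20, CCL24 -0.41 to 0.17, IL1R1 -0.45 to 0.29, IL6 -0.94 to 0.83, CCL4 -0.14 to 0.86, IL1B -0.74 to 0.15, IL18BP -0.14 to 0.10, CCR1 -0.32 to 0.33, IL15 -0.27 to 0.28, IL10RB -0.080 to 0.069, CXCL16 -0.18 to 0.080, IL34 -0.22 to 0.0022, LIF -0.68 to 0.060 and CCL3L1 -0.072 to 0.085. For these genes the sign of the difference lies within the spread between animals. Probe sets near the limit for testing carry little signal over background, and with 13 arrays intervals for the most variable genes span several log2 units.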
